A study of Rattus norvegicus with 6 samples.

Results

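Dbp, Tef, Hlf, Nfil3, Nr1d1, Nr1d2, Bhlhe40, Bhlhe41, Ciart and Ccrn4l, the genes through which the molecular clock of the liver passes its rhythm on, were followed by RNA-seq in the liver of rats after faecal microbiota transplantation. These 10 genes were taken by name from a table of 30957 genes, and each name matched a single row. The set was selected on earlier results of these same livers, in which the difference between the groups was already known, so its group differences are given as a description and support nothing. The recipients were female Sprague Dawley rats, bought as weanlings, whose own gut microbiota had been depleted with an antibiotic cocktail in the drinking water (pseudo germ-free rats). They were then gavaged daily with pooled faecal microbiota. Its donors had been injected with the androgen precursor dehydroepiandrosterone (t-DHEA) or with phosphate buffered saline (t-PBS). Both groups thus shared the antibiotic courses, and each group received 1 kind of pooled inoculum, so that the donors are not replicated within a group. RNA was sequenced from 3 livers per group, labelled as separate replicates and called rats 1, 2 and 3 here. The rats lived under a light/dark cycle, 2 to a cage, with free access to food. The hour of liver collection, the feeding state at that hour and the cage of each rat are not given in the sources used here.

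The clock of liver cells is a loop in which Arntl (BMAL1) and Clock activate genes carrying E-boxes, among them those of their own repressors. The PAR bZIP factors Dbp, Tef and Hlf activate genes through D-boxes, and Nfil3 (E4BP4) represses through the same sites. The REV-ERB nuclear receptors Nr1d1 and Nr1d2 repress Arntl and many metabolic genes, whereas Bhlhe40 (DEC1) and Bhlhe41 (DEC2) compete for E-boxes, and Ciart (CHRONO) binds the BMAL1 complex and represses it. Ccrn4l is the older symbol of Noct, which encodes nocturnin, a relative of the CCR4 deadenylases that is known as a phosphatase of NADP(H) and as a strongly rhythmic liver transcript. In liver these factors are known to steer bile acid synthesis, drug metabolism and lipid handling over the day.

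The promoters of Ccrn4l, Dbp and Tef are shown because these genes met the criteria given below, and that of Ciart because it held the most E-boxes. The fitted fold change of the 4 transcripts was positive, as was that of every one of the genes tested, but Ciart did not meet the criteria. For Hlf and Nfil3 it was small and changed sign when certain single livers were left out. Each window runs from 250 bases before to 50 bases after the RefSeq start in the assembly GRCr8, which is not the assembly of the count table, and is written 5′ to 3′ on the strand of the gene. Capitals mark the E-box CACGTG.

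Ccrn4l (Noct), GRCr8 chr2:137421824-137422123, plus strand: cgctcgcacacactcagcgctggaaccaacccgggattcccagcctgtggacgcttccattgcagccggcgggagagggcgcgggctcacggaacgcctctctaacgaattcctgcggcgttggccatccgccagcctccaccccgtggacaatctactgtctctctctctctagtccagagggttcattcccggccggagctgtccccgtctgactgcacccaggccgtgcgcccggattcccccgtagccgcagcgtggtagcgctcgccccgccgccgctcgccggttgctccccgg
Dbp, GRCr8 chr1:105312006-105312305, plus strand: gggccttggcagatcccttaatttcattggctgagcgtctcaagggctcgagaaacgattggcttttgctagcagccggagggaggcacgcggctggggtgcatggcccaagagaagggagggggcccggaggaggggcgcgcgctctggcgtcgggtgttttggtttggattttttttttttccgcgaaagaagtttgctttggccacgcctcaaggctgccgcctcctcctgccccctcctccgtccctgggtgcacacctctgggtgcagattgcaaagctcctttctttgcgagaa
Tef, GRCr8 chr7:115206577-115206876, plus strand: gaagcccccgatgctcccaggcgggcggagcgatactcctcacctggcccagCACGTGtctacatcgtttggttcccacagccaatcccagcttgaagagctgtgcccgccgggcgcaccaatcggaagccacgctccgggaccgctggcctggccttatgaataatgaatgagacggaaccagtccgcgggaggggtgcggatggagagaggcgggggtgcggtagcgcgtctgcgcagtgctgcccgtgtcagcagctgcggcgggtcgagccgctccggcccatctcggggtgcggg
Ciart, GRCr8 chr2:186112197-186112496, minus strand: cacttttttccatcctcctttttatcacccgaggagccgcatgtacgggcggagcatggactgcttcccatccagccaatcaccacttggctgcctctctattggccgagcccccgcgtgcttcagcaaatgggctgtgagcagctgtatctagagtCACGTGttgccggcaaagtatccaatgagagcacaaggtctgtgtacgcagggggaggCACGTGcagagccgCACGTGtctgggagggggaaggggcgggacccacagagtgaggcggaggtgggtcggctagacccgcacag

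RefSeq windows were found for 9 of the 10 genes. E-boxes were present in 4 of these 9 windows, against 6.42% of the windows of 33469 genes. Ciart held 3 of them, and the one nearest to the start lay at -21 to -16, counted from the start. The E-box lay at -48 to -43 in Bhlhe41, at -198 to -193 in Tef and at -220 to -215 in Bhlhe40. The windows of Ccrn4l, Dbp, Nfil3, Nr1d1 and Nr1d2 did not hold these letters. Neither a D-box (TTATGTAA, TTACGTAA or TTATGCAA, in 1.85% of all windows), nor a REV-ERB element (TAGGTCA or TGGGTCA, in 6.6%), nor a cAMP response element (TGACGTCA or TGACGCAA, in 2.29%) was found in any of the 9. Both strands were searched and the motifs did not overlap. These matches are letters within a short window and do not show binding.

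Library depth was similar between the groups, with 13031722 to 14316886 counts on genes in t-PBS and 12348511 to 13529414 in t-DHEA livers, and a count of 0 allows up to 3 counts, or 0.21 to 0.243 CPM. Counts of all 12210 genes that passed the filter for low counts were fitted together with edgeR's quasi-likelihood test. Following the thresholds of the study, a gene met the criteria where its fold-change exceeded 1.2 and its p, before adjustment, was below 0.05. In all, 604 genes (4.95%) met them, 240 higher and 364 lower in t-DHEA livers. Scaled by library totals alone the split was 157 higher and 471 lower, and the median log2 fold change over all genes moved from 0.0013 to -0.037. No gene had an adjusted p below 0.05 with edgeR's quasi-likelihood test, and 634 had an unadjusted p below 0.05. DESeq2 gave 24 genes an adjusted p below 0.05, and the likelihood-ratio test of edgeR gave 28.

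The levels of the 10 genes, compared per gene length in FPKM over all 6 livers, spanned a wide range. Nr1d1 was the most abundant with a mean of 45.9 FPKM (32.2 to 55.9), followed by Bhlhe40 with 30.6 FPKM (23.8 to 40.3), Nfil3 with 23.9 FPKM (16.9 to 31.5) and Dbp with 20.2 FPKM (9.25 to 37.1). Nr1d2 had a mean of 12.9 FPKM (10.7 to 15.5), Tef 9.31 FPKM (6.32 to 13.7) and Hlf 6.97 FPKM (4.25 to 9.48). Ccrn4l had a mean of 1.75 FPKM (0.318 to 5.01), and the scarcest transcripts were Ciart with 0.406 FPKM (0.157 to 0.722) and Bhlhe41 with 0.346 FPKM (0.0619 to 0.506). The ranges of every pair of neighbours in this order overlapped over the livers. Compared within single livers, Nr1d1 lay above Bhlhe40, Nr1d2 above Tef and Hlf above Ccrn4l in all 6. The other neighbouring pairs changed order between livers. Within each pair of relatives, Nr1d1 lay above Nr1d2 and Bhlhe40 above Bhlhe41 in all 6 livers. Bhlhe41 did not pass the filter for low counts, and the other 9 genes did.

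All 9 genes tested had a higher fitted level in t-DHEA livers. Their median log2 fold change was 0.32, against 0.0013 over all genes, of which 50.4% were higher. Ccrn4l, Dbp and Tef met the criteria, that is 3 of 9, all higher in t-DHEA livers, where 1.97% of all genes met them in that direction. Ccrn4l was the single gene of the 9 whose groups did not overlap, beside 10.1% of all genes tested. Since this contrast chose the genes, nothing is read from these counts. The lowest adjusted p among the 9 was 0.796 in edgeR's quasi-likelihood test, that of Ccrn4l.

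**Figure D1:**
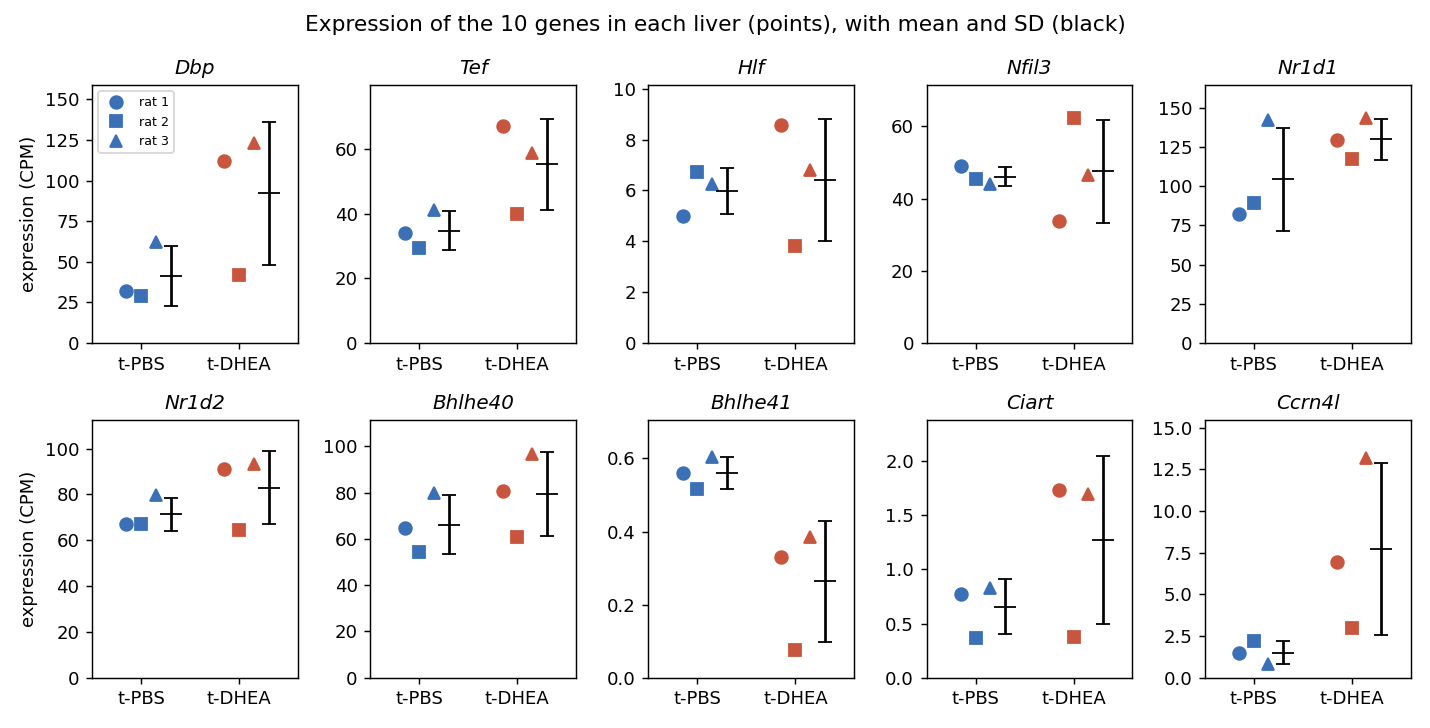
Expression in CPM (linear axes from 0, a separate scale for each gene) of the 10 genes in t-PBS (blue) and t-DHEA (red) livers, with a symbol for each rat and the mean and SD of each group (n = 3) in black. Dbp and Ciart in t-DHEA rat 2 lie near the t-PBS livers, and Ccrn4l is higher and Bhlhe41 lower in all 3 t-DHEA livers.

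Ccrn4l, which encodes nocturnin, lies on chromosome 2 of Rnor_6.0 from 140286661 to 140306869. It was expressed at 1.47, 2.21 and 0.83 CPM in t-PBS rats 1, 2 and 3 and at 6.94, 2.99 and 13.2 CPM in t-DHEA rats 1, 2 and 3, after scaling for depth. Every t-DHEA liver lay above every t-PBS liver, although t-DHEA rat 2 was closest to them. The log2 fold change was 2.35 (SE 0.54), and it stayed within 1.71 and 2.74 when single livers were left out, meeting the criteria each time. The adjusted p of Ccrn4l depended on the tool, being 0.000672 with DESeq2 and 0.0119 with the likelihood-ratio test of edgeR, and reaching 0.998 among the other alternatives. On the compressed scale of log2(FPKM + 1), limma gave a log2 fold change of 1.19. All these values come from the contrast on which the gene was selected. Its level rested on 62 counts in the t-PBS and 295 counts in the t-DHEA livers. Its SD between the t-DHEA livers, 5.15 CPM (n = 3), was large beside their mean of 7.71 CPM.

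Among the PAR bZIP activators, Dbp, which was first described as a regulator of the albumin promoter, had the largest difference. Its level was 32.0, 29.1 and 62.4 CPM in t-PBS rats 1, 2 and 3 and 112, 41.7 and 123 CPM in t-DHEA rats 1, 2 and 3. The groups overlapped, because t-DHEA rat 2 lay below t-PBS rat 3. Dbp had a log2 fold change of 1.16 (SE 0.41). Leaving out t-PBS rat 1, t-PBS rat 2, t-DHEA rat 1 or t-DHEA rat 3 ended the call of Dbp, with log2 fold changes of 0.91 to 1.01. Its value rose to 1.52 when t-DHEA rat 2 was left out and to 1.59 when t-PBS rat 3 was.

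Tef, the thyrotroph embryonic factor, followed Dbp at a smaller amplitude. Its level was 33.9, 29.2 and 41.1 CPM in the t-PBS and 67.0, 39.8 and 58.9 CPM in the t-DHEA livers, in the order of the rats. Here too t-DHEA rat 2 lay just below t-PBS rat 3. Tef had a log2 fold change of 0.67 (SE 0.20) and met the criteria without each liver in turn. Its lowest value was 0.51, without t-DHEA rat 1, and its highest 0.86, without t-DHEA rat 2.

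Hlf, the hepatic leukaemia factor, showed no such difference, with 4.98, 6.71 and 6.26 CPM in t-PBS and 8.59, 3.82 and 6.80 CPM in t-DHEA livers. The t-DHEA livers held both its highest and its lowest value. For Hlf the log2 fold change was 0.093 (SE 0.28), and its sign changed when t-PBS rat 1 was left out (-0.025) and when t-DHEA rat 1 was (-0.17). Whether Hlf differed from Dbp and Tef in its response was not tested.

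Nfil3, the repressor that opposes these activators at D-boxes, was expressed at 48.9, 45.5 and 43.9 CPM in t-PBS and at 33.8, 62.4 and 46.6 CPM in t-DHEA livers. Its t-PBS livers were close to each other, with a coefficient of variation of 5.54%, whereas that of the t-DHEA livers was 30.1%. The highest Nfil3 level was that of t-DHEA rat 2 and the lowest that of t-DHEA rat 1, whereas t-DHEA rat 1 lay above t-DHEA rat 2 for Dbp, Tef and Hlf. Nfil3 had a log2 fold change of 0.046 (SE 0.19), which was -0.20 without t-DHEA rat 2.

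Both REV-ERB receptors were higher on average in t-DHEA livers without meeting the criteria. Nr1d1 was expressed at 82.3, 89.2 and 142 CPM in t-PBS and at 129, 117 and 144 CPM in t-DHEA livers, so that t-PBS rat 3 reached the level of the t-DHEA livers. Its log2 fold change of 0.32 (SE 0.20) became 0.60 without t-PBS rat 3, where it met the criteria. Nr1d2 was expressed at 67.0, 67.3 and 79.6 CPM in t-PBS and at 91.0, 64.5 and 93.2 CPM in t-DHEA livers. For Nr1d2 the lowest of all 6 livers was t-DHEA rat 2. Leaving that liver out took its log2 fold change from 0.22 (SE 0.15) to 0.37, where it met the criteria. The end of Nr1d1 overlaps that of Thra, the thyroid hormone receptor alpha, by 1059 bases on chromosome 10 of Rnor_6.0 (Nr1d1 from 86683875 to 86690815, Thra from 86657285 to 86684933). Thra had 6.42 to 8.41 CPM in t-PBS and 6.61 to 7.71 CPM in t-DHEA livers, with a log2 fold change of -0.11. Since the counting is not stated to use strand, reads in the shared stretch cannot be assigned to either gene. None of the other 9 genes overlapped another row of the table.

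The paralogous E-box repressors had fold changes of opposite sign, neither of which met the criteria. Bhlhe40 was expressed at 64.6, 54.3 and 79.8 CPM in t-PBS and at 80.7, 60.8 and 96.7 CPM in t-DHEA livers, with overlapping groups. Bhlhe40 had a log2 fold change of 0.26 (SE 0.19), and it met the criteria without t-DHEA rat 2, at 0.43. Bhlhe41 had 8, 7 and 8 counts in t-PBS and 4, 1 and 5 counts in t-DHEA livers. Each t-DHEA liver therefore lay below each t-PBS liver, at 0.264 ± 0.166 CPM (SD, n = 3) against 0.560 ± 0.0438 CPM (SD, n = 3). A fit without the filter gave Bhlhe41 a log2 fold change of -1.07 (SE 0.63), which did not meet the criteria. The difference between Bhlhe40 and Bhlhe41 was not tested, and counts this low give Bhlhe41 little precision.

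Ciart, the repressor with 3 E-boxes in the window shown above, had 11, 5 and 11 counts in t-PBS and 21, 5 and 22 counts in t-DHEA livers. On the scale of CPM these were 0.771, 0.369 and 0.83 in t-PBS and 1.73, 0.374 and 1.70 in t-DHEA livers. In t-DHEA rats 1 and 3 Ciart exceeded all t-PBS livers, while t-DHEA rat 2 matched the lowest of them. Ciart had a log2 fold change of 0.93 (SE 0.57). Without t-DHEA rat 2 it was 1.38 and met the criteria.

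**Figure D2:**
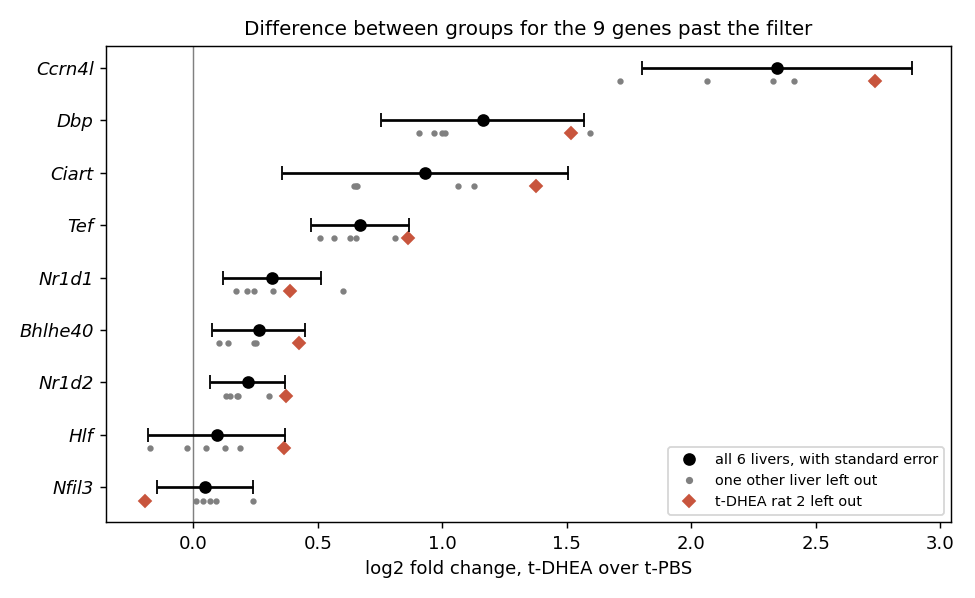
Log2 fold change, t-DHEA over t-PBS, of the 9 genes past the filter (black points, 3 livers per group, bars for the standard error), with the values obtained when one liver was left out (grey points, and red diamonds for t-DHEA rat 2). Ccrn4l has the largest value, 2.35, and leaving out t-DHEA rat 2 moved Nfil3 below 0 and the other 8 genes upwards.

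The order of the livers was then compared between the 10 genes. Within the t-DHEA group, rat 2 had the lowest CPM for 9 of the 10 genes, and Nfil3 was the exception. Within the t-PBS group, rat 3 had the highest CPM for 7 of the 10 genes. As a result t-PBS rat 3 lay above t-DHEA rat 2 for 8 of the 10 genes, Nfil3 and Ccrn4l being the others. Conversely, t-DHEA rats 1 and 3 both lay above all t-PBS livers for 7 genes, namely Dbp, Tef, Hlf, Nr1d2, Bhlhe40, Ciart and Ccrn4l. The SD in CPM, which rises with the level, was larger in t-DHEA than in t-PBS livers for 9 of the 10 genes, with Nr1d1 as the exception. The coefficient of variation was also larger there for the same 9 genes, though by little for Dbp (47.8% against 44.8%) and Bhlhe40 (22.65% against 19.39%). Without t-DHEA rat 2, 6 of the 9 genes tested met the criteria, the 3 above and Ciart, Bhlhe40 and Nr1d2. Beside them, 600 of all 12403 genes tested in that fit met the criteria. That liver was the lowest of its group for most of these genes, so leaving it out raises their fold changes by construction. Without t-PBS rat 1, t-PBS rat 2, t-DHEA rat 1 or t-DHEA rat 3 the number among the 9 was 2, beside 514 to 747 of all genes. The genes share their libraries and are known to regulate each other, so they are not replicates of one another. For the order of the livers and the SD, the share over all genes was not counted. Since the 10 genes were also chosen on this contrast, nothing is read from these counts.

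**Figure D3:**
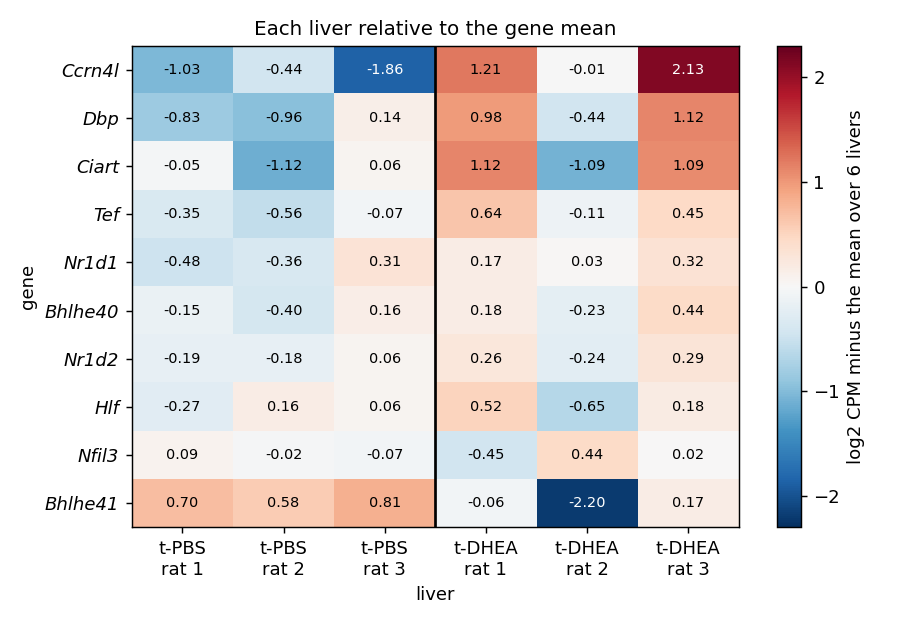
Log2 CPM of each gene (rows) in each liver (columns, t-PBS left and t-DHEA right of the line) minus the mean of that gene over the 6 livers, red for higher and blue for lower. The columns of t-DHEA rats 1 and 3 are mostly red, while that of t-DHEA rat 2 is below 0 for 8 genes, from -0.01 for Ccrn4l to -2.20 for Bhlhe41.

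Genes whose pattern was most like that of Dbp were sought among 8445 named genes with a mean of at least 5 CPM, the clock output genes themselves being left out. Within that set, Pearson's r with Dbp over the 6 livers ran from -0.531 for Nfil3 to 0.964 for Tef. Among the 8445 genes, log2 CPM of Grb2, Slc8b1, Snx18, Anapc4 and Ddb1 followed Dbp most closely. Pearson's r over the 6 livers ran from 0.963 for Ddb1 to 0.97 for Grb2 and Spearman's rho from 0.886 to 1. For Ccrn4l they were Mdm1, Tfpt, Parp9, Acer2 and Usp14, with Pearson's r from 0.967 for Usp14 to 0.984 for Mdm1 and Spearman's rho from 0.943 to 1. With 6 points taken from the same libraries, 64 of the 8445 genes exceeded an r of 0.9 with Dbp and 40 with Ccrn4l. These values describe likeness, and no test was made of them.

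Other genes of the pathway were read from lists that were drawn up with earlier results of these livers known, so that the shares called are a description and are not tested. Of 16 core clock genes tested, 2 met the criteria as higher, 1 as lower and 13 did not meet them, so that 18.8% were called beside 4.95% of all genes. Period genes Per3 and Per2, which repress BMAL1 and CLOCK, had log2 fold changes of 1.09 and 0.84, and Arntl, which the REV-ERB receptors repress, one of -0.87. Arntl was expressed at 36.7, 29.1 and 26.0 CPM in t-PBS and at 14.1, 22.4 and 13.7 CPM in t-DHEA livers, so that t-DHEA rat 2 lay closest to the t-PBS livers for this gene too. Per2 had 0.53 without t-DHEA rat 1. In this list 6 genes met the criteria without t-PBS rat 3, and 5 when t-DHEA rat 2 was left out.

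The list of genes known as targets of the PAR bZIP factors held 24 entries, of which 19 were in the table. Cyp2c7 and Gstt2 had no count in any liver and were not tested. Of the 17 tested, 1 met the criteria, which was 5.88% of them beside 4.95% of all genes. The median log2 fold change of those 17 was -0.088. This median turned to 0.081 when t-PBS rat 3 was left out and to 0.0025 when t-DHEA rat 2 was. That gene was Cyp7a1, the rate-limiting enzyme of bile acid synthesis, with 108, 54.1 and 128 CPM in t-PBS and 503, 131 and 260 CPM in t-DHEA livers. Its groups did not overlap, and t-DHEA rat 2 lay just above t-PBS rat 3. Cyp7a1 had a log2 fold change of 1.62, or 1.01 without t-DHEA rat 1. Alas1, the first enzyme of haem synthesis, and Abcg2, an efflux transporter, did not meet the criteria, with log2 fold changes of 0.24 and 0.53. In this list 3 genes met them without t-PBS rat 3, and 5 when t-DHEA rat 3 was left out.

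Of 20 genes regarded as targets of the REV-ERB receptors, 4 met the criteria as lower and 1 as higher, which was 25% of the list beside 4.95% of all genes. The median log2 fold change was -0.040, and omission of single livers moved it between -0.20 (t-DHEA rat 1) and -0.019 (t-DHEA rat 2). Lpl, lipoprotein lipase, had the lowest p of this list and fell by 1.56 on the log2 scale, while Plin2, a lipid droplet coat protein, fell by 0.45. Arntl and Insig2 were the other lower genes, and the higher gene was Cyp7a1, which also stands in the list of PAR bZIP targets. All 5 met the criteria without each liver in turn.

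Of 24 other rhythmic liver transcripts, 5 met the criteria as higher and 2 as lower, or 29.2% beside 4.95% of all genes, and the median log2 fold change was 0.19. The number higher was 2 when t-PBS rat 1 was left out, 8 when t-PBS rat 3 was and 3 when t-DHEA rat 3 was, the last with a median of 0.11. With limma on FPKM, 3 genes were called higher and 1 lower. Klf15, a factor of amino acid metabolism, had a log2 fold change of 0.65 and non-overlapping groups, with 42.5, 41.4 and 53.6 CPM in t-PBS and 74.7, 62.2 and 78.3 CPM in t-DHEA livers. Insig2, which retains SREBP in the endoplasmic reticulum, had one of -0.44.

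Among 20 relatives of nocturnin and other deadenylases, none met the criteria in edgeR's quasi-likelihood test, the list having log2 fold changes from -0.30 to 0.23. The poly(A) ribonuclease Parn had the lowest p of this list, with a log2 fold change of -0.30 and an unadjusted p of 0.052 (3 livers against 3, edgeR's quasi-likelihood test). Tob2 and Cnot6l had 0.23 and -0.14. With library totals alone 1 gene of the list met the criteria, and with DESeq2 none did.

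Of 15 glucocorticoid-responsive genes, 1 met the criteria as higher and 1 as lower, or 13.3% beside 4.95% of all genes. These were Tat, the tyrosine aminotransferase of hepatocytes, with a log2 fold change of 0.68, and Lcn2, an acute phase protein, with one of -1.07. The factor Klf9 had 0.42 and did not meet them. The count was 4 when rat 2 of either group was left out.

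Of 22 genes of fasting and feeding, 1 met the criteria as higher and 1 as lower, or 9.09% beside 4.95% of all genes. The median log2 fold change was -0.20, and it was -0.038 when t-PBS rat 2 was left out and -0.10 when t-DHEA rat 2 was. Txnip, which restrains glucose uptake, had -0.40, or -0.24 without t-PBS rat 3, and lost its call without that liver or t-DHEA rat 3. Srebf1, the regulator of fatty acid synthesis, had 0.50, or 0.25 without t-DHEA rat 1, and leaving out either t-PBS rat 1 or 2 or t-DHEA rat 1 or 3 ended its call. With library totals alone, no gene of this list met the criteria as higher. Cpt1a, of fatty acid oxidation, had -0.25 and did not meet them. In this list 6 genes met the criteria when t-DHEA rat 2 was left out, and 0 when t-DHEA rat 3 was (edgeR's quasi-likelihood test).

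**Figure D4:**
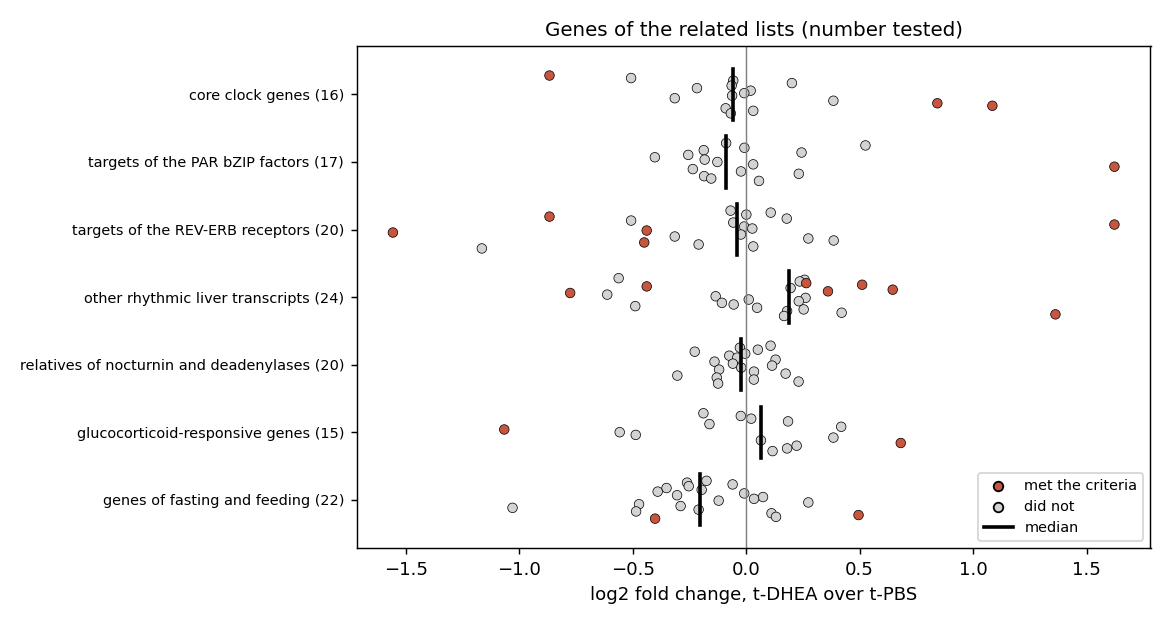
Log2 fold change, t-DHEA over t-PBS, of the genes tested in 7 related lists (one point per gene, red where the criteria were met, number tested in brackets, black bar for the median; the vertical spread of the points carries no value). The medians lie between -0.20 for genes of fasting and feeding and 0.19 for other rhythmic transcripts.

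The libraries carried the markers of liver, all 8 hepatocyte markers being detected, with a summed level of 165200 to 181200 CPM in t-PBS and 174500 to 193400 CPM in t-DHEA livers. In bulk tissue, fewer cells of a type and less RNA per cell cannot be told apart. Markers of mesothelial cells, which cover the liver surface, summed to 40.9 to 47.9 CPM in t-PBS and 3.29 to 32.8 CPM in t-DHEA livers, and 6 of the 8 tested met the criteria as lower. Lrrn4 and Gpm6a did not. Gpm6a had 10.25 to 10.8 CPM in t-PBS livers, and 12.7, 0.15 and 15.9 CPM in t-DHEA rats 1, 2 and 3. The lowest mesothelial sum, with Lrrn4, Wt1 and Krt7 at 0 counts, was that of t-DHEA rat 2, the liver with the lowest Dbp of its group. The 6 red cell markers matched summed to 185 to 284 CPM in t-PBS and 304 to 590 CPM in t-DHEA livers, the highest again in t-DHEA rat 2. Of the 5 tested, the globins Hba1, Hbb and Hbb-b1 met the criteria as higher. Alas2 and Slc4a1 did not, with log2 fold changes of 0.38 and -0.11. Cholangiocyte markers, which share Krt7 and Krt19 with the mesothelial list, ran from 18.9 to 23.6 CPM in t-PBS and 9.50 to 17.2 CPM in t-DHEA livers. Of these markers only the shared Krt7 and Krt19 met the criteria, as lower. Epcam, Sox9 and Cftr did not, with log2 fold changes of -0.25, -0.68 and 0.36. Kupffer cell markers ran from 400 to 488 and 446 to 613 CPM, and stellate cell markers from 400 to 444 and 358 to 402 CPM, with no gene of either list meeting the criteria. The part of these cells in the differences of the clock output genes was not tested.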

How the data were processed

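Liver RNA of 3 t-PBS and 3 t-DHEA rats was sequenced from paired-end TruSeq libraries. The authors filtered the reads with Seqtk, mapped them to Rnor_6.0 with HISAT2 2.0.4 and counted fragments per gene with StringTie 1.3.0; these deposited counts are raw. The FPKM values deposited by the authors divide them by gene length and depth. The annotation release and strand setting are not given in the sources used here. The counts were scaled by TMM and compared by the quasi-likelihood test of edgeR 4.0.16 (R 4.3.3) for the 12210 genes that its default filter kept, two-sided, with Benjamini-Hochberg adjustment over all of them and no covariate; each SE follows from the fold change and its test statistic. The paper ran edgeR on FPKM, whereas raw counts entered the model here. No pair of livers agreed within sampling noise. The labels name no animals, so p-values measure the spread between these livers.

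The 10 genes and all lists were chosen with earlier results of these data known. Of the list entries, 141 matched a gene name, 3 a RefSeq symbol and 7 none. Named besides the 10 genes were rows overlapping them, up to 3 genes of lowest p per list, the 5 genes most correlated with Dbp and with Ccrn4l, and cell type markers; 1 gene of this rule is not reported here. Alternatives were DESeq2 1.42.0, a likelihood-ratio test, other scaling and filters, limma 3.58.1 on log2(FPKM + 0.1) and log2(FPKM + 1), a block, omission of single livers and higher folds. The tests were checked on simulated counts. Floors cover counting error only.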

Additional observations from a re-analysis of the deposited data

How the results depend on the processing

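The number of genes that met the criteria was 275 at a fold-change above 1.5 and 100 above 2. It ran from 514 to 747 when single livers were left out. Under the same omissions the number among the clock output genes ran from 2 to 6. Ranges of the log2 fold change with single livers left out were 1.71 to 2.74 for Ccrn4l, 0.91 to 1.59 for Dbp, 0.64 to 1.38 for Ciart, 0.51 to 0.86 for Tef, 0.17 to 0.60 for Nr1d1, 0.10 to 0.43 for Bhlhe40, 0.13 to 0.37 for Nr1d2, -0.17 to 0.36 for Hlf and -0.20 to 0.24 for Nfil3. The sign of Nfil3 turned with limma on log2(FPKM + 0.1) at -0.036, with limma on log2(FPKM + 1) at -0.033 and without t-DHEA rat 2 at -0.196. That of Hlf turned with limma on log2(FPKM + 0.1) at -0.0067, without t-PBS rat 1 at -0.025 and without t-DHEA rat 1 at -0.174. The causes were not tested.

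Livers that bear the same rat number share only that number. The deviations of same-numbered livers from their group means correlated at -0.057, -0.059 and -0.055, and no liver correlated best with its own number. With the number as a replicate block, 539 genes and 4 of the clock output genes met the criteria, Nr1d1 being added with a log2 fold change of 0.35. The block also took the PAR bZIP target list from 1 to 2 genes and the fasting and feeding list from 2 to 0. With 3 livers per group, precision is limited most for Bhlhe41 and Ciart, which rest on few counts.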
